A study of Mus musculus with 2 samples.

Results

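The Tcf1 peaks at Lef1 and Tcf7 are 15 of the 2827 intervals in the authors' list of strong Tcf1 peaks. Tcf1 is itself the product of Tcf7, and Lef1 encodes its closest relative in T cells. The peaks were chosen by their position in that list: 12 had their midpoint between 130.6 and 131.0 Mb of chromosome 3 (the Lef1 window), and 3 between 52.03 and 52.15 Mb of chromosome 11 (the Tcf7 window), in mm9 coordinates. Because the measured positions chose the members, every position, width, spacing and score given here is a description of these 15 peaks, with no test. The list came from chromatin immunoprecipitation followed by sequencing (ChIP-seq), which recovers DNA crosslinked to a protein. Splenic CD8 T cells of wild-type C57BL/6 mice, enriched by removing all other cells, gave 1 library with a custom rabbit antiserum to Tcf1. They also gave 1 control library, labelled rabbit IgG (pre-immune rabbit serum, that is, serum from before immunization). Age, sex and number of mice are not given in the sources used here, and neither library carries a further treatment or allele. No peak has a replicate, depth is unknown since the list holds no reads, and signal in the control library was not used here.

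Tcf1 and Lef1 are HMG-box transcription factors. They bend DNA at a short motif that starts with CTTTG, bring in beta-catenin when Wnt signals are active, and otherwise recruit Groucho/TLE corepressors. In the thymus both factors support the development of T cells, and in mature CD8 T cells both are high in naive and memory cells and low in terminal effector cells. Control of a gene by its own product is called autoregulation, and control by a relative's product cross-regulation. A peak alone records occupancy and not an effect on transcription.

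Upstream sequences are shown for Lef1 because Tcf1 peaks lay close to its 5′ end and inside the gene. Of its 4 listed starts, 2 have their sequences shown. They are RefSeq sequences in GRCm38.p6, on the plus strand, each 250 bases long and ending at the base before a listed transcription start. Capitals mark CTTTG or its reverse complement CAAAG. The first ends at the first Lef1 start (chr3:131110047-131110296), the other at the last of the 4 listed starts (chr3:131156044-131156293), which lies 46.0 kb further into the gene.
Lef1 first start: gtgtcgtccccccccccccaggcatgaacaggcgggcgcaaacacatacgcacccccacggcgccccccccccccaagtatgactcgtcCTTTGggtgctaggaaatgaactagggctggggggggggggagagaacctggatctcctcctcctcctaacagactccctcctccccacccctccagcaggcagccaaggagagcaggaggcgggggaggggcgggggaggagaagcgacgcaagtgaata
Lef1 internal start: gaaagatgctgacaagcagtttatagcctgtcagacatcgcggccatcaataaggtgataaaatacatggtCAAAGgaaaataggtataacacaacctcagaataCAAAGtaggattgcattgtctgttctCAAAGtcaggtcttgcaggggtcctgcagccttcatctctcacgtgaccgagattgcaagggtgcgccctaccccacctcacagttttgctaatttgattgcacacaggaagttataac
The sequence at the first start held 1 core match, on the plus strand 161 to 157 bases before the start, and it went on with GG. The internal start held 3 core matches, all on the minus strand, at 179 to 175, 145 to 141 and 119 to 115 bases before the start. Read on their own strand these went on with AC, TA and AG, in that order. The 7-letter forms searched on both strands were CTTTG followed by AA, AT, TA or TT, which cannot overlap each other on 1 strand. The internal start thus held 1 of them and the first start none. Among all 32851 listed 250-base upstream sequences, 14.8% held a 7-letter form and 48.3% held CTTTG followed by any 2 bases. These sequences differ in base composition, with 66.4% G or C at the first start and 44.8% at the internal one. Of the 4 listed Lef1 starts, only the internal one shown had a 7-letter form. It was chosen for display after its matches were seen. All 4 held CTTTG followed by any 2 bases, but the first 2 starts are 26 bases apart and their sequences overlap. The 2 starts listed for Tcf7 held CTTTG on neither strand, and their sequences are not shown because no peak of the list lay inside Tcf7 or at its rounded 5′ end. The matches describe letters and not bound sites, and the peaks' own sequences in mm9 were not used here.

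Tcf1 peaks at Lef1 extended far beyond the gene on its upstream side and stopped within it. Lef1 runs on the plus strand from about 130.81 to about 130.93 Mb in mm9, ends that are rounded to 10 kb, so each distance from them is uncertain by about 5 kb. Of the 12 peaks, 6 lay upstream of the gene, 1 at its 5′ end within the rounding, and 5 inside it. No Lef1 peak lay downstream of the rounded 3′ end. Exons, introns and UTRs in mm9 were not used here, so peaks are placed only against the rounded ends.

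The far upstream group at Lef1 held 4 peaks. Peak 1, at chr3:130604342-130604604, was 263 bp wide with a score of 15.08 and lay 205.5 kb upstream of the rounded 5′ end. Peak 2, at chr3:130635148-130635501, was 354 bp wide with a score of 13.22, at 174.7 kb upstream. Peak 3, at chr3:130639935-130640293, was 359 bp wide with a score of 17.08, at 169.9 kb upstream. Peaks 2 and 3 were thus close neighbours, and peak 3 was the highest of all upstream peaks. Peak 4, at chr3:130650164-130650605, was 442 bp wide with a score of 12.20, at 159.6 kb upstream. The spacing from midpoint to midpoint was 30.85 kb between peaks 1 and 2, 4.79 kb between peaks 2 and 3 and 10.27 kb between peaks 3 and 4. All 4 scored above the median of the list, 11.17. The score is the authors' value for each peak. What it measures is not stated in the list or the labels, and scores are therefore set only against others of the list.

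Between that group and the gene lay 2 lower peaks. Peak 5, at chr3:130717074-130717620, was 547 bp wide with a score of 9.70 and lay 92.65 kb upstream, after the longest spacing of the locus, 66.96 kb. Peak 6, at chr3:130751692-130751996, was 305 bp wide with a score of 9.21, the lowest at Lef1, at 58.16 kb upstream and 34.5 kb from peak 5. Both were below the median score of the list, and neither had another peak within 10 kb. Peak 7, at chr3:130808672-130809190, was 519 bp wide with a score of 12.47. It lay 57.09 kb after peak 6 and 1.07 kb before the rounded 5′ end, so whether it falls at the start of the gene or some kilobases before it cannot be told from these ends. It too stood alone, with its nearest neighbour 47.66 kb away, edge to edge.

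Inside Lef1 the peaks formed a pair, a single peak and a second pair. Peak 8, at chr3:130856849-130857192, was 344 bp wide and had the highest score of the locus, 17.35, at 47.02 kb past the rounded 5′ end. Peak 9, at chr3:130860200-130860789, followed 3.47 kb later and was the widest of the locus at 590 bp, with a score of 9.80. In this pair the narrower peak was the higher. Peak 10, at chr3:130893590-130893939, was 350 bp wide with a score of 13.88 and lay 83.76 kb past the 5′ end, 33.27 kb after peak 9. Peak 11, at chr3:130910641-130910901, was 261 bp wide with a score of 12.41, and peak 12, at chr3:130911350-130911877, was 528 bp wide with a score of 12.69. Peaks 11 and 12 lay 100.8 and 101.6 kb past the 5′ end, toward the 3′ end of the gene. Their midpoints were 0.84 kb apart with 448 bp between their edges, the closest spacing at either gene. Their scores differed by less than the scores of any other pair within 10 kb at Lef1, while peak 12 was the wider of the pair. Whether any peak lies at the internal start shown above was not examined, because the peaks are in mm9 and that start is in GRCm38.p6.

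**Figure D1:**
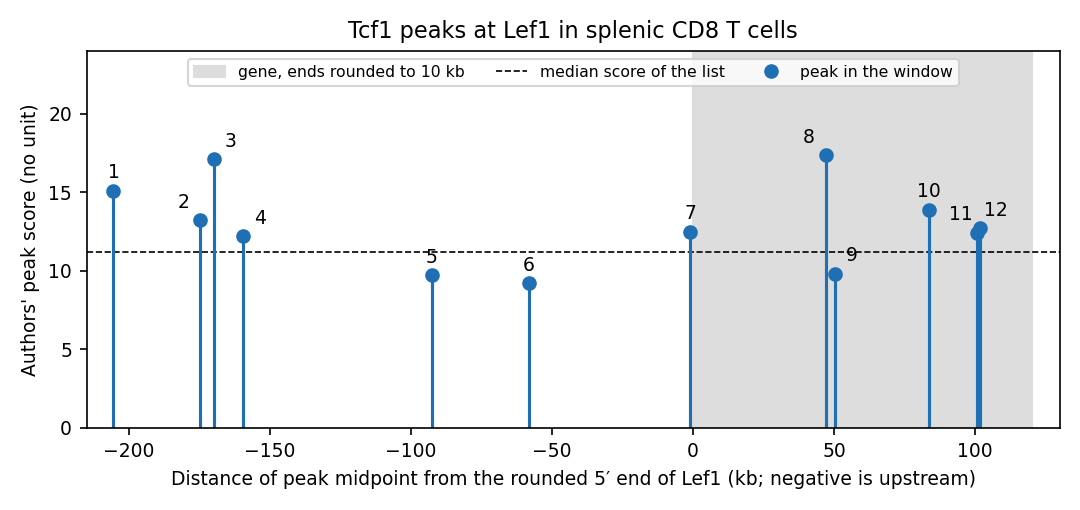
Score of each Tcf1 peak in the Lef1 window (vertical axis, authors' score, no unit) against the distance of its midpoint from the rounded 5′ end of Lef1 (horizontal axis, kb, negative values upstream); numbers name the peaks, grey marks the gene and the dashed line the list's median score of 11.17. The 2 highest peaks, 3 and 8, lie on opposite sides of the 5′ end, and 3 peaks (5, 6 and 9) lie under the median.

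As a set, the Lef1 peaks had medium scores in a narrow range. They ran from 9.21 to 17.35 with a median of 12.58, against 4.06 to 45.69 with a median of 11.17 over the list. A score at or above the list's median was found in 9 of the 12, where 50.3% of the list had one. A score at or above its upper quartile of 13.45 was found in 4 of the 12 (peaks 1, 3, 8 and 10), where 29.4% of the list had one; many peaks share exactly that value. The highest of them, peak 8, ranked 225th of 2827 and peak 3 ranked 246th.

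The Lef1 peaks were on the broad side of the list. Their widths ran from 261 to 590 bp with a median of 356.5 bp, against a median of 276 bp over all peaks. A width at or above that median was found in 10 of the 12, where 50.2% of the list had one. A width at or above the upper quartile of 368 bp was found in 5 of the 12 (peaks 4, 5, 7, 9 and 12), where 25.0% of the list had one. These 5 were spread over the locus, with 2 upstream, 1 at the 5′ end and 2 inside the gene. Peaks 5, 7, 9 and 12 were the widest of them, at 519 to 590 bp. Their scores, from 9.70 to 12.69, lay above 8.38, the median score of the 164 peaks at least as wide as peak 7, the narrowest of them. In all, the 12 peaks covered 4862 bp of the 400 kb window.

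Neighbouring Lef1 peaks were a median of 30.85 kb apart over 11 spacings, from 0.84 to 66.96 kb, against a median of 409.6 kb over the 2806 spacings of the list. Another peak lay within 10 kb, edge to edge, of 7 of the 12 peaks, where 16.3% of the list had one; positions chose the members, so nothing is read from this count. With such neighbours counted once, Lef1 held 8 places. The 12 peaks spanned 307.5 kb and were set apart from the rest of the chromosome. The next peak on the lower side was 1356.2 kb away, at chr3:129248199-129248405 (207 bp, score 13.45), and the next on the upper side 2365.8 kb away, at chr3:133277287-133277510 (224 bp, score 14.99). Gaps at least that long made up 22.1% and 10.2% of the list's spacings. The members nearest to the window's edges were peak 1, which lay 4.47 kb inside, and peak 12, which lay 88.39 kb inside.

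No other autosomal stretch of the list held as many peaks at such spacings. When peaks were joined wherever neighbours lay no more than 66.96 kb apart, the longest spacing at Lef1, the list fell into 2212 groups, of which 1808 were single peaks. The 12 Lef1 peaks made 1 group. No other autosomal group was longer than 8 peaks, and the one group of the list longer than that of Lef1, with 16 peaks, was on chromosome X. The autosomal groups of 8 were on chromosome 11 (46140280 to 46218831, median score 8.54) and on chromosome 9 (123663489 to 123845911, median score 12.48). Both were more compact than the Lef1 group, with spans of 78.55 and 182.4 kb. This limit was taken from the Lef1 peaks themselves, and the comparison is a description of the list.

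Peaks were also counted in windows of fixed length. Windows of 400 kb were laid end to end along each chromosome as far as the window with its last peak, and any stretch beyond was left out. Of these 6571 windows, 4699 (71.5%) held no peak and 2 (0.0304%) held 12 or more. Both were on chromosome X, at 92.0 to 92.4 Mb with 16 peaks and 120.4 to 120.8 Mb with 13. The fullest autosomal window of this tiling held 9. A tile boundary cut the Lef1 peaks into 6 and 6. With a window begun at every peak, an option added after seeing the data, the highest count on an autosome was 12, reached only by the window that begins at Lef1 peak 1.

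**Figure D2:**
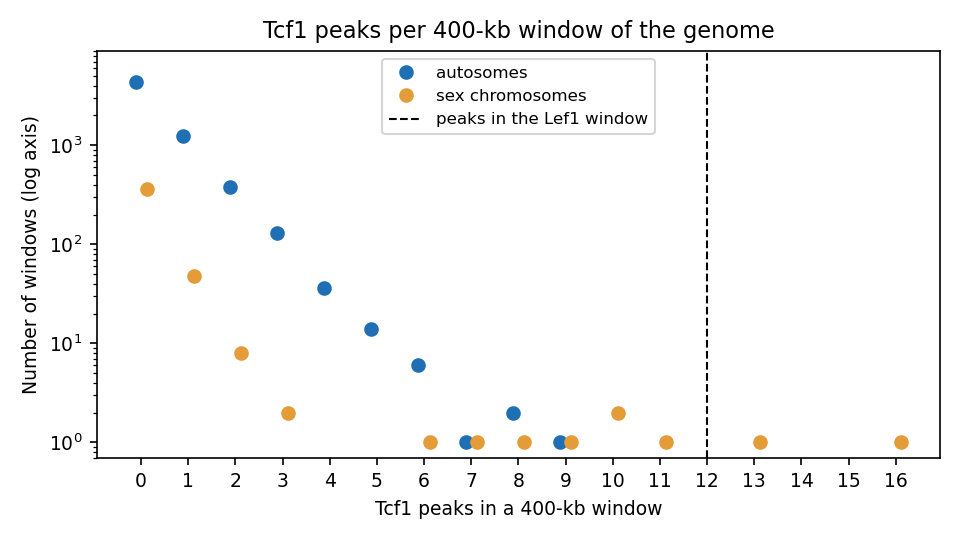
Number of 400-kb windows (vertical axis, log scale) by the number of Tcf1 peaks they hold (horizontal axis), for autosomes and for chromosomes X and Y; the dashed line marks the 12 peaks of the Lef1 window. The fullest autosomal window of this tiling holds 9 peaks, and the 2 windows past the line are on chromosome X. The Lef1 window is not one of these tiles, which cut its peaks into 6 and 6, so the line and the points are placed differently.

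The shorter Tcf7 window held fewer Tcf1 peaks, all upstream of the gene, and 1 of them was among the highest of the list. Tcf7 runs on the minus strand, with its 5′ end at about 52.10 Mb, so higher positions are upstream. Peak 1, at chr11:52123091-52123389, was 299 bp wide with a score of 8.41 and lay 23.24 kb upstream. Peak 2, at chr11:52127403-52128303, was 901 bp wide with a score of 27.88, at 27.85 kb upstream. Peak 3, at chr11:52131917-52132324, was 408 bp wide with a score of 5.73, at 32.12 kb upstream. The high, broad peak thus lay between 2 low ones. The spacings were nearly equal, 4.61 kb from peak 1 to peak 2 and 4.27 kb from peak 2 to peak 3, and the 3 peaks spanned 9.23 kb. No peak of the list lay inside the rounded extent of Tcf7, from about 52.07 to 52.10 Mb. A place without a listed peak is not shown to lack Tcf1.

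**Figure D3:**
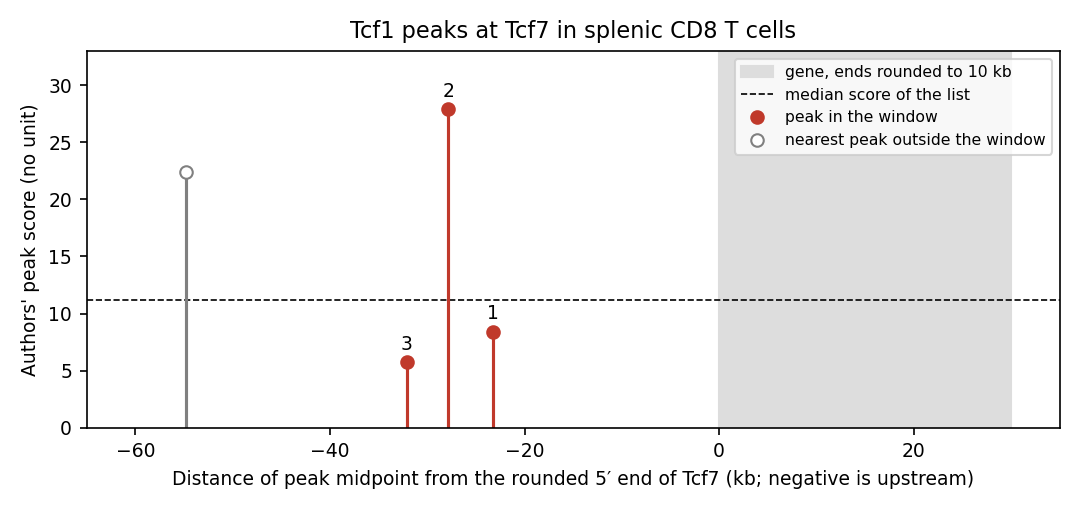
Score of each Tcf1 peak in the Tcf7 window (vertical axis, authors' score, no unit) against the distance of its midpoint from the rounded 5′ end of Tcf7 (horizontal axis, kb, negative values upstream); the open circle is the nearest peak outside the window, grey marks the gene and the dashed line the list's median score. Peak 2 reaches 27.88, while peaks 1 and 3 on either side of it stay under the median of 11.17.

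Tcf7 peak 2 joined a high score to a great width. Its score ranked 11th of 2827 and its width 22nd. Among the 22 peaks at least 901 bp wide it had the highest score; their median was 5.14 and the next highest was 8.46. Among the 11 peaks that scored at least 27.88 it was the widest, the next being 493 bp and the median 432 bp. It was singled out for these values after they were seen. The other Tcf7 peaks were low in score: peak 1 scored higher than 22.1% of the list, and peak 3 higher than 4.1%. A score at or above the list's median was found in 1 of the 3 Tcf7 peaks (50.3% of the list) and one at or above the upper quartile in 1 (29.4% of the list). All 3 were at least as wide as the list's median (50.2% of the list), and 2 of them reached its upper quartile (25.0% of the list). All 3 also had another peak within 10 kb (16.3% of the list), a count that the choice by position touches and from which nothing is read.

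**Figure D4:**
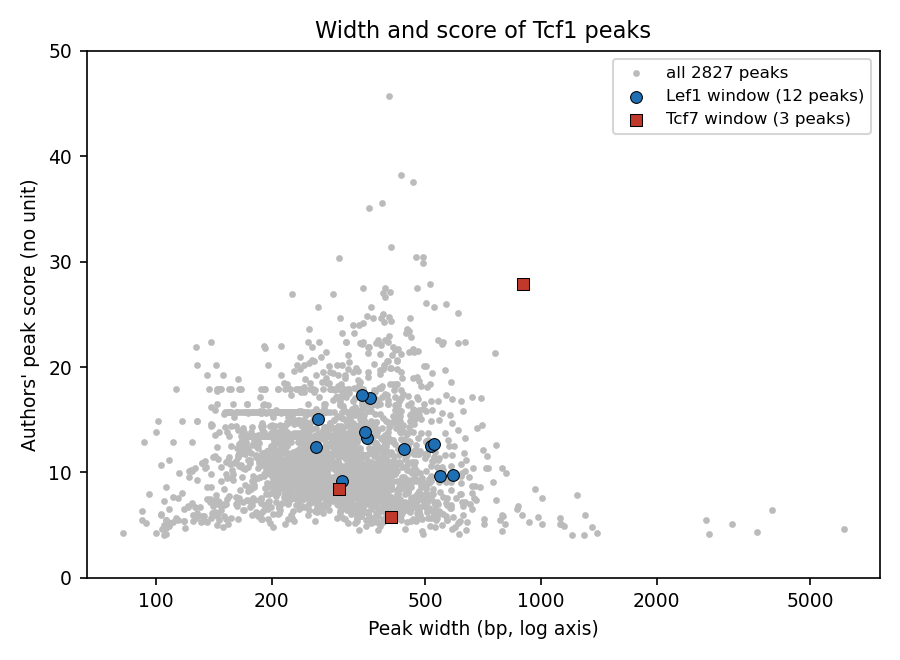
Score (vertical axis, authors' score, no unit) against width (horizontal axis, bp, log scale) of all 2827 Tcf1 peaks in grey, with the 12 peaks of the Lef1 window as blue circles and the 3 of the Tcf7 window as red squares. The Lef1 peaks sit within the main cloud, and Tcf7 peak 2, at 901 bp and 27.88, lies apart from it.

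A further high peak lay just beyond the upper edge of the Tcf7 window. It was at chr11:52154491-52155046, 556 bp wide with a score of 22.41, which ranked 50th in the list. It lay 4.77 kb outside the window, 22.65 kb from Tcf7 peak 3 and 54.77 kb upstream of the rounded 5′ end of Tcf7. Only 3 of the 120 peaks at least as wide had a higher score, and Tcf7 peak 2 was one of them. Tcf7 peak 3 was the member nearest to that edge, 17.88 kb inside it. On the lower side the member nearest to the edge was peak 1, 93.24 kb inside, and the next peak of the list was 854 kb from it, at chr11:51269095-51269445 (351 bp, score 11.60).

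Windows as long as that of Tcf7 were counted in the same way, again as a description of the list. Of 21872 windows of 120 kb laid end to end, 96 (0.439%) held 3 or more peaks and 19602 (89.6%) held none. The fullest autosomal window of this length held 6 in this tiling and 8 with the tiles shifted by 60 kb. Per 100 kb, the windows of Lef1 and Tcf7 held 3.0 and 2.5 peaks. Within these windows the layouts differed. Lef1 had many peaks of medium score, upstream and inside the gene, and Tcf7 a compact upstream run around 1 high, broad peak. The windows are 400 and 120 kb long, and that of Lef1 reaches further upstream, so the layouts are not compared over equal distances. The high peak just beyond the Tcf7 window, with a score of 22.41, joins the Tcf7 peaks in a group of 4 at the 66.96 kb limit. The highest Lef1 score, 17.35, was below that of Tcf7 peak 2, and the lowest, 9.21, was above those of Tcf7 peaks 1 and 3.

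Other genes border both loci, and a peak's position does not assign it to a gene. In the RefSeq gene table of GRCm38.p6, used for names and order only, the nearest protein-coding genes on the lower, upstream side of Lef1 are Rpl34, Ostc and Etnppl, and on the upper side Hadh, Cyp2u1 and Sgms2. The next gene of any kind upstream of Lef1 is the long noncoding RNA gene Gm36603. Hadh encodes a mitochondrial enzyme of fatty acid oxidation, and Rpl34 a ribosomal protein. Upstream of Tcf7 on the upper side come the long noncoding RNA gene Gm30217 and then Vdac1, which encodes a channel of the outer mitochondrial membrane. The neighbour on the lower side, next to the 3′ end of Tcf7, is Skp1, a subunit of SCF ubiquitin ligases.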

How the data were processed

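The authors deposited 1 list of intervals in bedGraph layout, named strong peaks per the file headers, with 1 score for each peak. For the build mm9, the tools in the submitters' processing notes are MACS 1.4.1, Bowtie 0.12.5 and CASAVA 1.8, with no roles or settings. The score's scale, the peak threshold, the handling of duplicate and multiply mapped reads and the part of the control serum in calling are not given in the sources used here. Per the labels' protocols, libraries had 18 PCR cycles and fragments of 220 to 400 bp, which bounds how finely close peaks can be parted.

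Peaks were assigned to a window by midpoint, and positions are counted from 1. The rounded mm9 ends of Lef1 and Tcf7 came with the windows and were not checked against an mm9 annotation; strands are from RefSeq. The members and lists were chosen with earlier results of these data known. All 15 members are named, with the nearest peak beyond each window edge, the windows as full as that of Lef1, and up to 3 neighbouring protein-coding genes on each side. The count in 400-kb tiles shifted by 200 kb was checked on a simulated list with 12 peaks planted in the Lef1 window. The unshifted tiles, the 120-kb tiles and the windows begun at each peak were not part of that check. Percentages of windows have a 95% exact binomial interval, used only to compare settings. The planned protein comparison and Wnt pathway list were not analysed here, because protein sequences and mm9 gene positions were not used. Alternatives covered window limits, score threshold, distance limits, tiling and motif. Figures were drawn with Matplotlib 3.10.9, intervals came from SciPy 1.17.1, and tables were handled with pandas 2.3.3 and NumPy 2.4.6 under Python 3.11.15.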

Additional observations from a re-analysis of the deposited data

How the results depend on the processing

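Of 39 alternatives to 14 results, 24 stayed within 1.5 times a count, within the 95% interval of a median (1.5 times for the 3 Tcf7 peaks, which are too few for an interval) or within the binomial interval of a percentage, and 15 did not. Narrowed by 0.25 of its length on each side, which can only lower a count, the Lef1 window held 6 peaks and the Tcf7 window 0. Widened as much, the Tcf7 window took in the high peak beyond its edge, and its median score was 15.41 against 8.41. Among peaks at or above the list's median score, 1 was left in the Tcf7 window (peak 2), so its median score was 27.88 and its median width 901 bp, against 408 bp for all 3; 0 had a neighbour within 10 kb. Then 6.0% of 120-kb windows held as many, and 0% of 400-kb windows held the 9 left at Lef1. Counting neighbours within 10 kb once left 1 place at Tcf7. With a 50 kb limit all 12 Lef1 peaks had a neighbour. On autosomes alone 0% of tiled 400-kb windows held 12 peaks. A tile boundary inside the Lef1 window split its peaks in both 400-kb counts, so neither 0% could include that window. With tiles shifted by 200 kb, 3 windows (0.0456%) held 12 or more. The fullest of these on an autosome, with 12, was the Lef1 window itself. Windows begun at each peak, added after seeing the data, gave 0.707% (Lef1) and 9.48% (Tcf7), against 0.0304% and 0.439% of tiles; by construction they hold at least 1 peak and overlap, so 1 cluster is counted several times. CTTTG with any 2 following bases was found upstream of 4 Lef1 starts, 2 of them with overlapping sequences, against 1 with a 7-letter form. No Tcf7 peak lay inside the gene and 1 remained above the median score, so 3 alternatives gave no value. No paired analysis was possible because the peaks came from a single Tcf1 library. The list gives no reads, so depth sets no limit that can be stated here.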
